A study of Mus musculus with 17 samples.

Results

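The 7 genes described here, Gabra2, Gabra3, Gabra4, Gabra5, Gabrb1, Gabrb2 and Gabrd, encode subunits of the GABA-A receptor. They were chosen by symbol, and all 7 are among the 36293 genes of the bulk files and the 37608 genes of the single-nucleus files. The data are bulk nuclear RNA-seq of the medial prefrontal cortex (mPFC) of 4 control and 5 CUS mice at P90, and sNucDrop-seq, a droplet method that counts the RNA of single nuclei, on the neocortex of 4 control and 4 CUS mice at P80. CUS stands for chronic unpredictable stress. All mice were male C57BL/6 by the labels (C57Bl/6J in the study's methods), without transgenes or deletions, and each library came from 1 mouse. By the methods mice were group-housed, and CUS mice met 3 stressors a day for 12 days. Control mice lived in another room and were handled daily, so the room and the stress cannot be told apart. Cortex for sNucDrop-seq was taken 24 h after the last stressor, while the bulk mice had also gone through behavioral tests. The methods state that control and CUS mice used for behavior were housed alone from the last evening of CUS for some of these tests.

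The GABA-A receptor is a ring of subunits around a chloride channel that opens when GABA, the main inhibitory transmitter of the adult brain, binds between an alpha and a beta subunit. The alpha subunit largely sets where a receptor sits and how it responds. Receptors with alpha 2 (Gabra2) or alpha 3 (Gabra3) and a gamma subunit cluster at synapses and carry phasic inhibition. Receptors with alpha 4 (Gabra4) and delta (Gabrd), or with alpha 5 (Gabra5), lie mostly outside synapses and carry tonic inhibition. The beta subunits (Gabrb1, Gabrb2) complete the GABA binding site and take part in assembly and trafficking.

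In the mm10 coordinates of the bulk files, Gabra2 (chr5:70957597-71095849, - strand), Gabra4 (chr5:71569749-71658308, - strand) and Gabrb1 (chr5:71658113-72149037, + strand) form a cluster on chromosome 5. Gabra5 (chr7:57407672-57510059, - strand) lies on chromosome 7, Gabrb2 (chr11:42419757-42629028, + strand) on chromosome 11, Gabrd (chr4:155384980-155398112, - strand) on chromosome 4 and Gabra3 (chrX:72432681-72656848, - strand) on the X chromosome. Gabra4 and Gabrb1 point away from each other, and their 5' ends share 196 bases. The sources do not say whether the bulk count used strand, so bulk reads from this overlap cannot be assigned with certainty, while the nuclei were counted on the annotated strand.

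Promoter windows are shown for the head-to-head pair Gabra4 and Gabrb1, for Gabra5, since 1 of the 2 calls between groups below fell on Gabra4 and the other on Gabra5, and for Gabra3 as the contrast without a CpG. Each runs from 250 bases before to 50 bases after a start site in RefSeq (GRCm38.p6), at chr5:71658259-71658558 (- strand), chr5:71657671-71657970 (+ strand), chr7:57510010-57510309 (- strand) and chrX:72656758-72657057 (- strand). Capitals mark CpG dinucleotides.

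Gabra4: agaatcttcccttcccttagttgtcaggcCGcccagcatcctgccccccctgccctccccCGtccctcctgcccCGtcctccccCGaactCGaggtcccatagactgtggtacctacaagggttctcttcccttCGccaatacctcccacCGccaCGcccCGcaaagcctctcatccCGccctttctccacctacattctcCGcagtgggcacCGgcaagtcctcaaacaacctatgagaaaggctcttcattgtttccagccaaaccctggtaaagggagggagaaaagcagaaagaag
Gabrb1: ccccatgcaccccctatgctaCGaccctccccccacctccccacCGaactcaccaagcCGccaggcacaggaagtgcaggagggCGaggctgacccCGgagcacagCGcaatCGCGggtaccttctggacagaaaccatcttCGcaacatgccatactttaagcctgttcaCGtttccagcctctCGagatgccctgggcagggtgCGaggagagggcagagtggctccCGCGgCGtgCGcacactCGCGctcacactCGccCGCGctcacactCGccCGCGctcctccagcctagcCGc
Gabra5: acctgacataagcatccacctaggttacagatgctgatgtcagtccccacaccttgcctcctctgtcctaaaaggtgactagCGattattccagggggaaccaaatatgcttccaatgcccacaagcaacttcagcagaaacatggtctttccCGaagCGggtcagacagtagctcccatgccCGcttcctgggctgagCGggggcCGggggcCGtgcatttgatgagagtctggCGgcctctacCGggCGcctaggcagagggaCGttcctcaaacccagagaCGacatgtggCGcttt
Gabra3: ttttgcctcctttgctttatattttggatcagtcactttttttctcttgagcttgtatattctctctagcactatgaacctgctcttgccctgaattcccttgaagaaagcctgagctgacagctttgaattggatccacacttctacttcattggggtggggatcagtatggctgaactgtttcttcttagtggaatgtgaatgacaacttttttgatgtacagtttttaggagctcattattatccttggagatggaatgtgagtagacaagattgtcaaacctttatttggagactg

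The window shown for Gabrb1 holds 25 CpGs and its other RefSeq window 9, the window of Gabra4 holds 12 and that of Gabra5 13, and both windows of Gabra3 hold 0. The median over the 32851 RefSeq windows of this length was 7, and 5.43% of them held none. Windows were found for 6 of the 7 genes, 10 windows in all, and Gabrd was not matched. The letters GCCATNTT, a core motif of the architectural factor YY1, occurred on either strand in 6.05% of all windows and in 0 of the 10. The letters TGACGTCA, the cAMP response element, occurred in 1.79% of all windows and in 0 of the 10. A motif match or its absence in these windows says nothing on binding.

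Depth and checks of the series are as follows. Between 26188825 and 30525015 bulk reads per mouse fell on genes. The nuclei files list 5000 barcodes per mouse, 40000 in all, of which 26699 passed the filters on genes, mitochondrial UMIs and doublets, with a median of 2010 UMIs and 1274 genes per nucleus. After filtering, 4699542 to 12477099 UMIs remained per mouse. Only 20 barcodes occurred in more than 1 library. The study describes striatal and claustrum cells among its nuclei as contamination of the dissections from outside the cortex. In the nuclei, CUS replicate 2 stood apart from the other CUS mice. Nuclei led by striatal markers made up 8.74% of its nuclei, within the 7.38% to 9.92% of the control mice, against 4.97%, 4.21% and 2.46% in the other CUS mice. The main results on nuclei are given with and without this mouse. The methods place the 8 mice in 2 batches, but the labels do not give the batch of a mouse, so it was not in any fit.

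In bulk nuclear RNA of the mPFC, all 7 genes were expressed, and 0 of the 7 passed an FDR of 0.05 (edgeR quasi-likelihood test), while 606 of 18394 tested genes did, or 3.29%. At an unadjusted p under 0.05 the count was 1 of 7, against 3954 of the 18394 genes, and DESeq2 and edgeR's likelihood ratio test called 0. The largest difference was in Gabrd, 0.20 higher in CUS mice on the log2 scale, and the other 6 lay between -0.12 and 0.07. CUS and control mice overlapped for each of the 7 genes, while the groups did not overlap for 8.76% of all genes tested. In bulk tissue, fewer cells of a type and less RNA per cell cannot be told apart.

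Levels between genes are compared per kilobase of gene body, since nuclear RNA holds introns. In control mice Gabrb2 stood at 1.92 ± 0.173 CPM (reads scaled to the library's total on tested genes and its TMM factor) per kilobase, Gabra4 at 1.77 ± 0.112, Gabra2 at 1.74 ± 0.153 and Gabrb1 at 1.66 ± 0.105 (SD, n = 4). Gabrd, at 1.31 ± 0.191, and Gabra5, at 0.591 ± 0.0621, were lower, and Gabra3, at 0.365 ± 0.0477, was lowest. Neighbors among the leading 4 differed by less than the larger of their SDs, and Gabra5 and Gabra3 lay below the other 5 genes by more than the spread between mice. Gabrd rested on the fewest reads, 396 to 630 per mouse, and Gabrb1 on the most, 21201 to 24288.

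Among the alpha subunits of synaptic receptors, bulk CPM of Gabra2 was 260.5, 256.6, 216.5 and 230.1 in control mice 1 to 4 and 209.5, 244.1, 244.8, 217.6 and 221.6 in CUS mice 1 to 5. Bulk CPM of Gabra3 was 93.8, 81.7, 84.3 and 67.9 in control and 84.5, 90.5, 89.4, 79.9 and 85.3 in CUS mice. Control mouse 4 was the lowest of the 9 for Gabra3, and CUS values of both genes lay inside or next to the control range. The log2 differences were -0.08 (SE 0.07, FDR 0.542) for Gabra2, which ran from -0.14 without control mouse 3 to -0.05 without control mouse 1, and 0.07 (SE 0.08, FDR 0.668) for Gabra3.

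Among the alpha subunits of extrasynaptic receptors, bulk CPM of Gabra4 was 168.2, 160.3, 154.4 and 144.8 in control mice and 143.6, 157.4, 156.4, 133.1 and 129.5 in CUS mice. For Gabra4, 3 of 5 CUS mice lay below every control mouse and the other two inside the control range. Its mean was 156.9 ± 9.88 in control and 144.0 ± 12.8 in CUS mice, a log2 difference of -0.12 (SE 0.07, FDR 0.337). Bulk CPM of Gabra5 was 61.6, 67.0, 61.7 and 51.7 in control and 60.1, 69.8, 61.8, 60.5 and 62.2 in CUS mice (log2 difference 0.06, SE 0.07, FDR 0.712). The lowest value of Gabra5 was again control mouse 4.

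The delta subunit Gabrd, which pairs with alpha 4 outside synapses, had bulk CPM of 14.95, 15.61, 17.59 and 20.52 in control and 20.08, 19.05, 19.53, 20.87 and 18.84 in CUS mice. All 5 CUS mice lay above control mice 1 to 3, and control mouse 4 lay among them. The mean was 17.17 ± 2.50 in control and 19.68 ± 0.824 in CUS mice, a log2 difference of 0.20 (SE 0.09, FDR 0.216). Gabrd alone of the members had an unadjusted p under 0.05 (edgeR quasi-likelihood test), as did 3954 of the 18394 genes tested. Without control mouse 4 the difference was 0.30 and passed the threshold (FDR 0.0454, edgeR), and without control mouse 1 it was 0.13.

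Of the beta subunits, bulk CPM of Gabrb1 was 884.6, 818.8, 791.9 and 764.3 in control and 755.2, 859.0, 806.8, 773.3 and 792.3 in CUS mice. Bulk CPM of Gabrb2 was 455.5, 393.6, 377.5 and 381.9 in control and 384.8, 415.4, 435.1, 403.7 and 394.5 in CUS mice. The 2 groups covered nearly the same range for each. Log2 differences were -0.03 (SE 0.06, FDR 0.812) for Gabrb1 and 0.02 (SE 0.07, FDR 0.916) for Gabrb2. Summed over the 7 genes, control mice had 1661 to 1939 CPM and CUS mice 1658 to 1855.

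**Figure D1:**
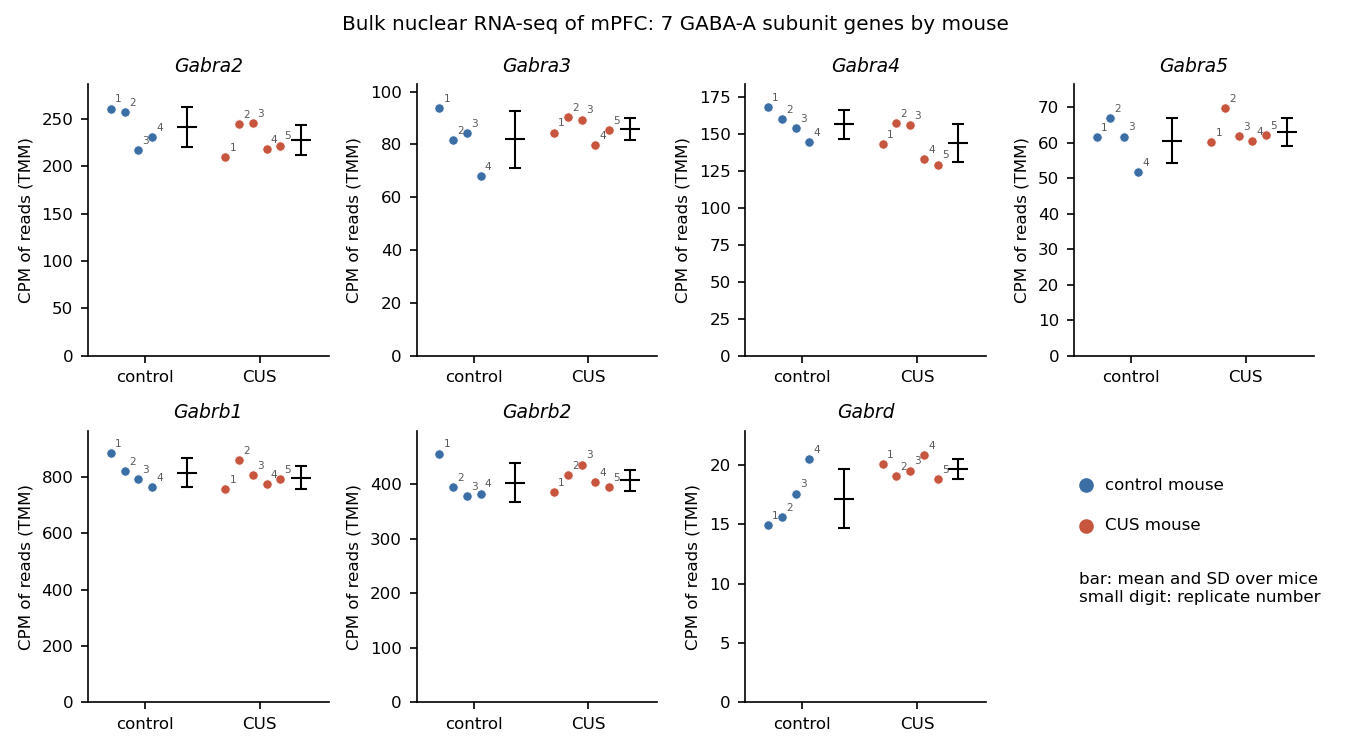
Bulk CPM of the 7 genes (vertical axes from 0, one panel per gene) in each control and CUS mouse, with the mean and SD of each group as a bar and the replicate number beside each point. The points of the groups overlap in every panel, and in the Gabrd panel control mouse 4 (20.52) lies among the CUS mice.

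Markers of other cells moved with the groups in the same bulk libraries. Of 8 astrocyte markers, 3 were called lower in CUS mice, with summed levels of 2402 to 2788 CPM in control and 2179 to 2523 in CUS mice. Of 5 OPC markers 2 were called lower (495 to 600 against 387 to 462 CPM), of 8 oligodendrocyte markers 1 was called lower (298 to 701 against 312 to 397 CPM), and of 5 markers of Enpp6-positive oligodendrocytes 2 were called lower (133 to 163 against 118 to 138 CPM). No marker of these glial lists lay above 0. All 8 oligodendrocyte markers had an unadjusted p under 0.05 (edgeR quasi-likelihood test), against 3954 of 18394 genes, with a median log2 difference of -0.54. Neuronal markers moved too. Of 6 Inh_Pv markers 4 lay above 0 and 1, Cemip, was called higher, and their sums did not overlap (177 to 228 CPM in control and 241 to 272 in CUS mice). The 6 general inhibitory markers all lay below 0 with 0 called and 1 at an unadjusted p under 0.05 (edgeR quasi-likelihood test), with a median log2 difference of -0.29 and sums of 215 to 306 against 215 to 270 CPM. Of 5 claustrum markers 1, Nr4a2, was called lower (183 to 207 against 166 to 175 CPM). All 6 excitatory markers lay above 0 and 1, Neurod6, was called higher (747 to 1212 against 968 to 1055 CPM). All 6 Ex_L5/6 markers also lay above 0 and 1, Fstl4, was called higher (627 to 886 against 869 to 1011 CPM). Of 11 striatal markers only 1, Pde10a, lay above 0, and it was called higher, while the rest lay below 0. Of the 11, 7 had an unadjusted p under 0.05 (edgeR quasi-likelihood test), and the median log2 difference was -0.88. Their sum was 763 to 1343 CPM in control and 1260 to 1514 in CUS mice. Single calls also fell in the lists for Inh_Ndnf (1 higher, 1 lower), Inh_Vip (1 higher), Ex_Tshz2 (1 higher) and choroid plexus (1 lower). The 5 markers named here were chosen after their values were seen, and the part of these shifts in the values of the 7 genes was not tested.

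Other genes of GABA signaling were read from lists. Of the 12 other GABA-A subunit genes 9 were tested in bulk, 0 were called higher and 1 lower, with a median log2 difference of 0.02 against 0.01 over all genes. The call was Gabrg1, a gamma subunit, at 13.3 CPM in control and 8.66 in CUS mice (log2 difference -0.62, SE 0.11, FDR 0.0145). In the nuclei Gabrg1 was highest in Astrocyte-like nuclei (126 CPM), followed by the C130073E24Rik/Rmst cluster (101 CPM) and OPC-like nuclei (53.7 CPM), and the part of the lower astrocyte and OPC markers in its bulk difference was not tested. Gabrr2 and Gabrg3 had the next smallest p, with log2 differences of -0.72 and 0.17, and did not pass (FDR 0.162 and 0.226). Of 11 genes of chloride transport, all tested, 1 was called lower and 0 higher, with a median of -0.08. It was Slc12a2, which encodes the chloride importer NKCC1, at 105.0 CPM in control and 78.5 in CUS mice (log2 difference -0.42, SE 0.08, FDR 0.0217). Wnk1, Clcn2 and Slc12a7 followed at -0.26, 0.21 and -0.51 without passing edgeR's quasi-likelihood test (FDR 0.0525, 0.164 and 0.178). DESeq2 and the likelihood ratio test called Wnk1, a kinase upstream of chloride transporters, lower as well as Slc12a2. In the summed nuclei Slc12a2 was at -0.10 (FDR 0.754) and Wnk1 at -0.09 (FDR 0.722, edgeR quasi-likelihood test for both). The part of the lower glial markers in the bulk differences of Slc12a2 and Wnk1 was not tested.

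None of the other 3 lists had a call in bulk with edgeR's quasi-likelihood test. At an unadjusted p under 0.05 they had 5 of 26, 0 of 8 and 1 of 6 genes, against 3954 of 18394 genes over all. The lists of other subunits and of chloride transport had 3 of 9 and 6 of 11. DESeq2 called Ubqln1 lower and Gabbr2 higher, and the likelihood ratio test Gabbr2 alone. Of the 28 genes of the inhibitory postsynapse and of receptor trafficking 26 were tested (median log2 difference 0.00), and the smallest p belonged to Ubqln1 (-0.15), Shisa7 (0.23), Lhfpl4 (-0.14) and Rdx (-0.17), with FDR of 0.110 to 0.214. All 8 genes of GABA synthesis, transport and breakdown were tested (median -0.17), led by Gad1 (-0.32), Gad2 (-0.26), Slc6a13 (-0.40) and Abat (-0.16) with FDR of 0.314 to 0.332. All 6 GABA-B receptor genes were tested (median -0.07), and Gabbr2, a subunit of that receptor, stood at 0.43 with an FDR of 0.098.

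UMIs of all nuclei were then summed per mouse. The 7 genes held 51.4% of the 256519 UMIs of the 19 GABA-A subunit genes. At an FDR of 0.2, 0 of the 7 were called with edgeR's quasi-likelihood test, DESeq2 or the likelihood ratio test. Over all genes 1 of 5018, or 0.0199%, was called. At an unadjusted p under 0.05 (edgeR quasi-likelihood test) there was 1 of the 7 (Gabra4), against 403 of the 5018 genes. For 6 of the 7 the CUS mean was below the control mean, and for Gabrd it was above. In the same sums 0 of 8 tested striatal markers were called and 5 had an unadjusted p under 0.05 (edgeR), with a median of -0.46 and sums of 1326 to 1424 CPM in control and 886 to 1732 in CUS mice. All 5 tested excitatory markers lay above 0, with 0 called, 1 at an unadjusted p under 0.05 and a median of 0.21 (1047 to 1198 against 1196 to 1390 CPM). Without the striatal-like nuclei Gabra4 was at -0.27 and Gabrb2 at -0.31, and the part of the excitatory markers was not tested. The groups overlapped for all 7, against 4.76% of all genes with no overlap. CPM over all nuclei were scaled with TMM factors over the genes tested.

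In all nuclei, Gabra4 had 225.0, 230.4, 204.8 and 230.3 CPM in control and 166.4, 208.7, 183.0 and 172.4 CPM in CUS mice. For Gabra4, 3 of 4 CUS mice lay below every control mouse, and CUS mouse 2 lay between control mouse 3 and the other control mice. The log2 difference was -0.29 (SE 0.09, FDR 0.595). Gabrb2 had 445.7, 535.6, 465.3 and 471.7 CPM in control and 270.1, 447.0, 438.5 and 395.6 CPM in CUS mice. CUS mouse 1 was far below the rest for Gabrb2, and only CUS mouse 2 reached the control range (log2 difference -0.31, SE 0.14, FDR 0.595). Gabra2 had 437.6, 483.2, 448.3 and 470.9 CPM in control and 350.5, 512.0, 384.6 and 358.8 CPM in CUS mice. For Gabra2, CUS mouse 2 was the highest of the 8 and the other 3 CUS mice lay below every control mouse (log2 difference -0.20, SE 0.12, FDR 0.615).

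Gabrd had 81.1, 59.9, 72.3 and 89.4 CPM in control and 90.3, 93.8, 72.1 and 70.0 CPM in CUS mice, with the groups interleaved (log2 difference 0.12, SE 0.14, FDR 0.778). The difference ran from 0.027 (without control mouse 2) to 0.21 (without control mouse 4), was 0.062 without CUS mouse 2, and was 0.24 without the striatal-like nuclei. Gabra3, Gabra5 and Gabrb1 differed by -0.13 (SE 0.09), -0.04 (SE 0.09) and -0.13 (SE 0.11), with FDR of 0.630, 0.874 and 0.689. Gabrb1 was at -0.20 without CUS mouse 2 and at -0.058 without CUS mouse 1, and Gabra5 ran from -0.074 (without control mouse 3) to -0.0012 (without control mouse 2). Control means were 169.5 ± 9.83 CPM for Gabra3, 92.1 ± 6.19 for Gabra5 and 959.7 ± 51.9 for Gabrb1, and CUS means 155.1 ± 12.3, 89.3 ± 3.02 and 876.5 ± 115. Without CUS mouse 2, 828 of 5125 genes (16.2%) were called, among them Gabra2 (-0.32, FDR 0.081), Gabra4 (-0.34, FDR 0.068) and Gabrb2 (-0.37, FDR 0.169), all lower in CUS mice. In that fit every CUS mouse had fewer striatal-like nuclei (4.97%, 4.21% and 2.46%) than every control mouse (7.38% to 9.92%). The part of this difference in the calls was not tested. Without CUS mouse 1 Gabrb2 was at -0.17 (FDR 0.981). Of the genes of the 5 lists, 0 were called in all nuclei with edgeR or DESeq2. Between 0 and 3 per list had an unadjusted p under 0.05 (edgeR), against 403 of 5018 genes over all.

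**Figure D2:**
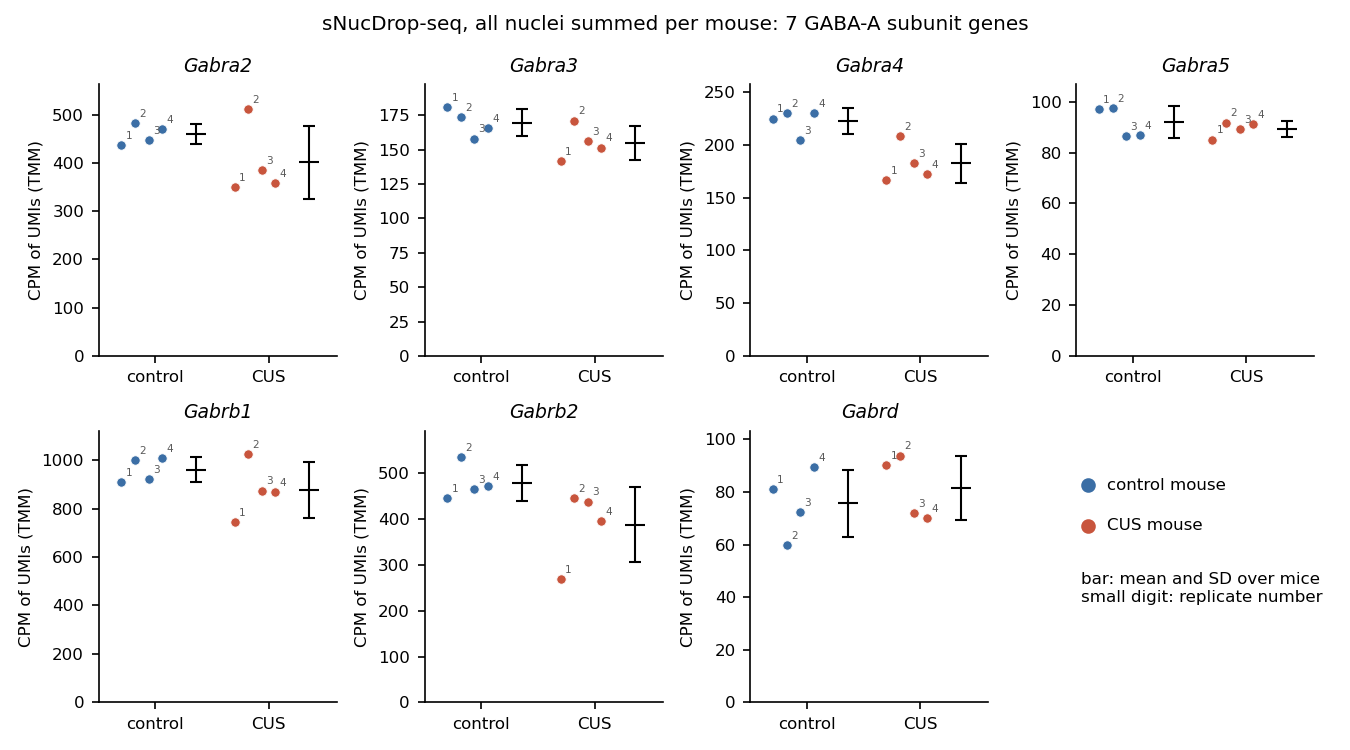
CPM of the 7 genes in the summed nuclei (vertical axes from 0, one panel per gene) in each control and CUS mouse, with the mean and SD of each group as a bar and the replicate number beside each point. In the Gabra2 and Gabrb1 panels CUS mouse 2 (512.0 and 1022.9) is the highest of the 8 mice.

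The nuclei were clustered without the GABA-A genes among the variable genes, and 27 classes of over 200 nuclei were kept. A class is named only where fixed markers lead it, with Ex_ for excitatory and Inh_ for inhibitory neurons and Pv, Sst, Vip and Ndnf for interneuron types, and is otherwise called by its 2 leading genes. In 14 excitatory classes Slc17a7, the vesicular glutamate transporter, stood at 161 to 300 CPM and Gad2, a GABA-synthesizing enzyme, below 100. The Nefm/Nefl cluster had as few as 4 nuclei in a mouse, heat-shock and mitochondrial genes among its leading genes and a median of 1018 UMIs per nucleus, and is read with care. Levels across classes below are CPM of all UMIs, as mean ± SD over 8 mice, and describe each gene across classes, not one gene against another. All classes share the same 8 mice. The striatal-like and Claustrum-like classes carry markers of cells that the study counts as non-cortical.

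Gabra2 was highest in the Cpne7/B130024G19Rik cluster of excitatory nuclei (958 ± 162 CPM), followed by the excitatory Angpt1/Atp10a (653 ± 232) and Ndst4/Abi3bp (643 ± 74.5) clusters, the C130073E24Rik/Rmst cluster (552 ± 72.4) and the striatal-like Drd2 and Drd1 classes (539 ± 99.6 and 526 ± 93.3). It was lowest in Ex_L6b-like (73.2 ± 25.9), Inh_Pv-like (82.4 ± 20.5) and Ex_Tshz2-like nuclei (99.4 ± 64.2). The other synaptic alpha subunit, Gabra3, had a level of 229 ± 113 CPM in the Pbx3/Foxp2 cluster, 208 ± 33.3 in Claustrum-like, 206 ± 59.2 in Ex_Tshz2-like and 203 ± 34.7 in Inh_Sst-like nuclei. It was lowest in Astrocyte-like (35.8 ± 13.7), Oligodendrocyte-like (36.9 ± 15.8) and striatal-like Drd1 nuclei (45.4 ± 20.2).

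Gabra4 was highest in striatal-like Drd2 (374 ± 56.3 CPM) and Drd1 nuclei (303 ± 47.4), then in Inh_Ndnf-like (219 ± 58.1), Ex_L2/3-like (216 ± 38.9), Tshz2/Slc17a6 (208 ± 68.3) and Ex_L4-like nuclei (208 ± 29.0). It was lowest in OPC-like (37.0 ± 27.1), Oligodendrocyte-like (58.4 ± 11.5), Fyb2/Ntng1 (62.4 ± 13.6) and Inh_Vip-like nuclei (74.8 ± 17.2). Gabrd had the same 2 classes at its top, with 163 ± 35.5 CPM in striatal-like Drd2, 160 ± 14.2 in Drd1, 157 ± 29.9 in Inh_Pv-like, 110 ± 50.3 in Inh_Ndnf-like and 110 ± 17.5 in Ex_L2/3-like nuclei. Its lowest classes were Inh_Vip-like (8.21 ± 8.27), the Angpt1/Atp10a cluster (9.26 ± 10.5), Astrocyte-like (9.78 ± 8.86) and OPC-like nuclei (10.3 ± 12.3). Over the 27 classes Gabra4 and Gabrd had the highest Pearson r of log2(CPM + 1) among pairs of the 7 genes, 0.66.

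Gabra5 was highest in Ex_L6b-like nuclei, at 287 ± 54.0 CPM, followed by the Angpt1/Atp10a (176 ± 34.3) and Cpne7/B130024G19Rik (140 ± 25.9) clusters, both excitatory, and Inh_Ndnf-like nuclei (135 ± 30.3). It was lowest in Inh_Sst-like (16.9 ± 13.2), OPC-like (24.9 ± 22.3), Astrocyte-like (27.0 ± 16.7) and Fyb2/Ntng1 nuclei (27.5 ± 10.8). The class with the most Gabra5 was among those with little Gabra2. Ex_L2/3-like nuclei, with 505 ± 44.7 CPM of Gabra2, had 43.0 ± 6.82 of Gabra5. The next classes for Gabra5, Angpt1/Atp10a and Cpne7/B130024G19Rik, were high in Gabra2, at 653 and 958 CPM. Over the 27 classes the Pearson r of log2(CPM + 1) between Gabra2 and Gabra5 was 0.06.

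Gabrb1 was highest in Astrocyte-like nuclei, at 2311 ± 315 CPM, with every mouse above every mouse of the next class, Ex_Tshz2-like (1449 ± 218). Gabrb2 and Gabrd were at or near their lowest in the same Astrocyte-like nuclei, at 51.7 ± 18.0 and 9.78 ± 8.86 CPM. Slc17a7, a gene that astrocytes lack, stood there at 18.1% of its median over the excitatory classes, Gabrb2 at 14.3%, Gabrd at 23.6%, Gabra3 at 24.6% and Gabra5 at 28.0%, while Gabra4 stood at 73.1%, Gabra2 at 120% and Gabrb1 at 296%. Gabrb2 lay below the share of Slc17a7 and Gabrd, Gabra3 and Gabra5 lay little above it, and none of these 4 is read as expression in these nuclei. Slc17a7 in Astrocyte-like nuclei stood at 20.3 ± 9.95 CPM in control and 54.9 ± 32.3 in CUS mice, and Gad2 at 86.4 ± 19.1 over 8 mice. RNA from inhibitory or striatal nuclei is not gauged by Slc17a7, and its part was not tested. Gabrb1 was lowest in Oligodendrocyte-like (329 ± 137) and Inh_Pv-like nuclei (370 ± 39.2). Gabrb2 was highest in Inh_Ndnf-like nuclei (819 ± 239 CPM), followed by the Tshz2/Slc17a6 cluster (601 ± 124), Inh_Pv-like (504 ± 102), Ex_L6-like (467 ± 106) and Ex_L2/3-like nuclei (453 ± 91.1), and was lowest in Astrocyte-like and Oligodendrocyte-like nuclei (97.0 ± 50.7).

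When classes were ordered by level, neighbors overlapped between mice in nearly all cases: of 26 neighboring pairs per gene, 1 did not overlap for Gabrb1, the one between Astrocyte-like and Ex_Tshz2-like nuclei, and 0 for each of the other 6 genes. All classes come from the same mice, and differences between neighboring classes within a mouse were not tested. The class with the highest level was the same for all 7 genes in control mice alone and by the mean of log values per nucleus. The lowest class was not the same for Gabra2, Gabra5 and Gabrd. By control mice alone it was Ex_Tshz2-like for Gabra2 (68.1 CPM, against 80.5 in Ex_L6b-like), Microglia-like for Gabra5 (22.6 CPM) and OPC-like for Gabrd (6.6 CPM).

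**Figure D3:**
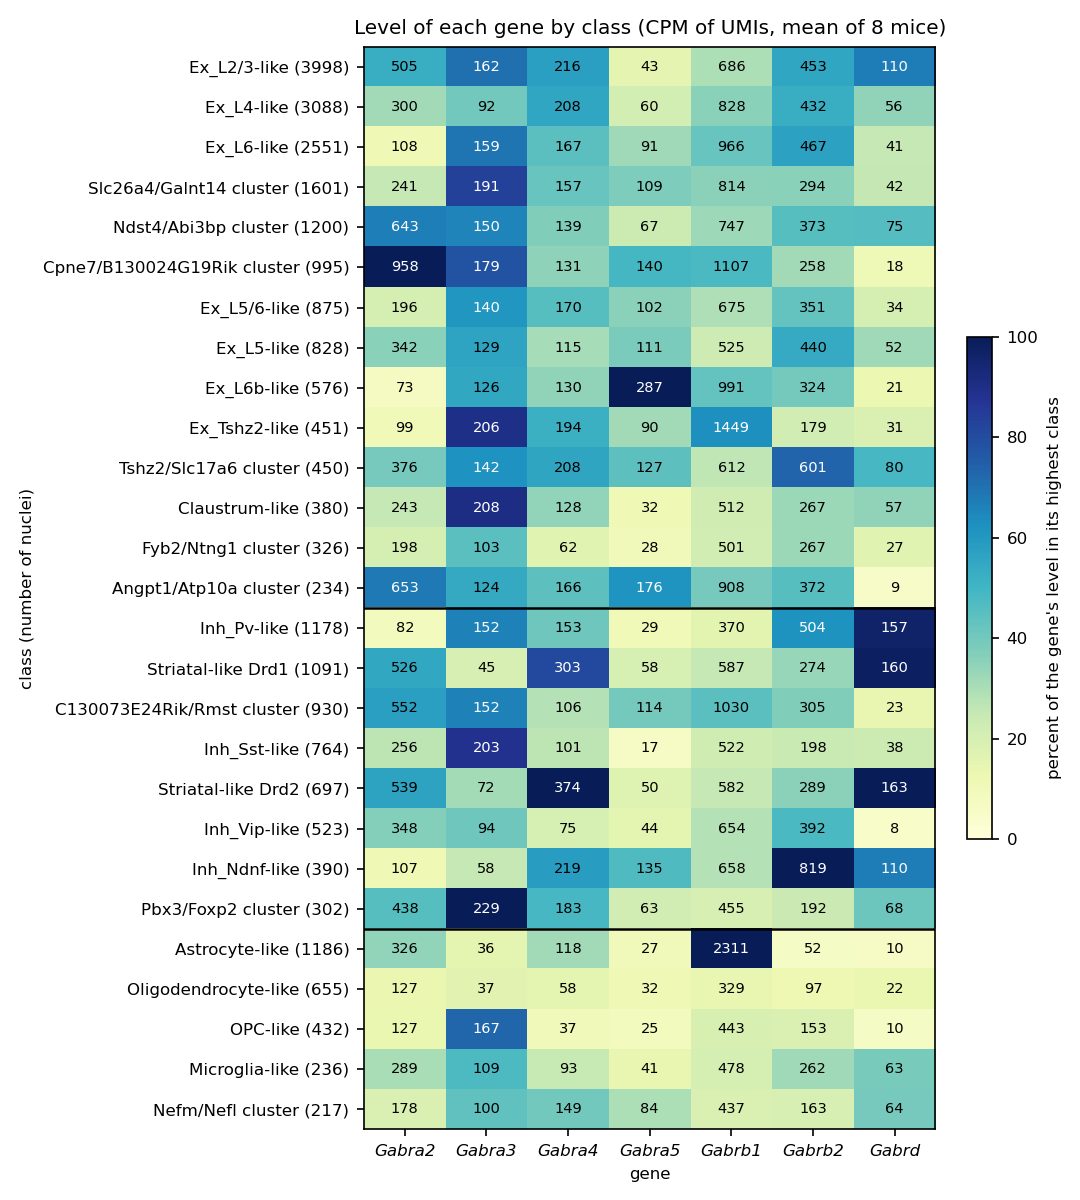
Level of the 7 genes (columns) in 27 classes of nuclei (rows, with the number of nuclei), printed as the mean CPM of all UMIs over 8 mice and shaded as a percent of the gene's level in its highest class. Lines divide excitatory, inhibitory or striatal, and other classes, and the darkest cells fall in a different class for most genes, with Gabra4 and Gabrd sharing striatal-like Drd2 nuclei.

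Genes whose levels over the 27 classes were most like each member's were sought among 8089 other genes with a mean of at least 20 CPM. The 3 nearest by Pearson r of log2(CPM + 1) were Efcab1 (0.76), Agfg2 (0.76) and Rfx3 (0.72) for Gabra2, Gm48091 (0.81), Opcml (0.78) and Cers4 (0.77) for Gabra3, and Itpr1 (0.79), Prelid3a (0.79) and Car11 (0.77) for Gabra4. For Gabra5 they were Bmt2 (0.77), Khdrbs3 (0.69) and Lztfl1 (0.68), and for Gabrb1 Fmn2 (0.72), Rnf24 (0.71) and Dclk1 (0.70). For Gabrb2 they were Mir124a-1hg (0.87), Ttc13 (0.80) and Slf1 (0.80), and for Gabrd Itpr1 (0.78), Ndrg4 (0.73) and AI593442 (0.68). Itpr1, the intracellular calcium channel, was nearest to both Gabra4 and Gabrd. Among pairs of the 7 genes the lowest r was between Gabrb1 and Gabrd (-0.40). The classes share 8 libraries, and these values are descriptions.

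Within classes, CUS was compared with control on UMIs summed per mouse (TMM-scaled CPM below, edgeR quasi-likelihood test, FDR 0.2 within the class). Of 189 pairs of a member and a class, 163 had enough UMIs to test and 26 did not, mostly Gabrd (13) and Gabra5 (8). Of the 163, 2 were called (1.23%), where 133 of 125848 pairs of any gene and a class were (0.106%). The groups did not overlap in 11 pairs (6.7%), against 3.32% over all genes, and 23 pairs (14.1%) had an unadjusted p under 0.05, against 5.87% over all genes. Among these 23, 18 were lower and 5 higher in CUS mice. Of all 163, 110 were below 0 and 53 above. Without CUS mouse 2, 6 of 164 pairs were called, where 1.17% of all gene and class pairs were, 31 (18.9%) had an unadjusted p under 0.05, against 8.2% over all genes, and 120 were below 0. These counts repeat the same mice across classes and are not independent of each other.

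The first call was Gabra4 in Ex_L2/3-like nuclei, the largest class, with 3998 nuclei and 2505 UMIs of Gabra4. The level was 266.3, 292.4, 275.3 and 314.2 CPM in control and 201.5, 227.2, 210.6 and 185.4 CPM in CUS mice. Every CUS mouse was below every control mouse, CUS mouse 2 included. The mean fell from 287.1 ± 21.1 to 206.2 ± 17.5 CPM, a log2 difference of -0.48 (SE 0.12, FDR 0.0980, edgeR). In this class 57 of 5435 genes were called (1.05%). The call was lost when control mouse 2 (FDR 0.328) or 4 (FDR 0.280), or CUS mouse 1 (FDR 0.232), 3 (FDR 0.201) or 4 (FDR 0.318) was left out, with log2 differences of -0.53 to -0.42 over all single mice left out. Without CUS mouse 2 it was -0.53 (FDR 0.0193).

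Over all classes Gabra4 mostly lay on the same side. It was tested in 25 classes, was below 0 in 21 and above 0 in 4, with a median of -0.18, and 5 had an unadjusted p under 0.05, all lower. In the Slc26a4/Galnt14 cluster Gabra4 stood at 198.9 ± 24.3 CPM in control and 159.2 ± 5.50 in CUS mice, without overlap (log2 difference -0.33, SE 0.15, FDR 0.509). In the Ndst4/Abi3bp cluster the difference was -0.42 (SE 0.18, FDR 0.695) and in Inh_Sst-like nuclei -0.66 (SE 0.26, FDR 0.815), with overlap in each. In the striatal-like classes, where Gabra4 was highest, it was -0.08 (Drd1) and -0.04 (Drd2). In Microglia-like nuclei Gabra4 differed by -1.89 (SE 0.55, FDR 0.890) on 52 UMIs in all, and Slc17a7 in the same nuclei stood at 96.1 ± 61.1 CPM in control and 174.7 ± 48.1 in CUS mice, so neuronal RNA was present there and its part was not tested.

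The second call was Gabra5 in the C130073E24Rik/Rmst cluster, whose nuclei held Gad2 at 537 CPM and Slc17a7 at 29.8 CPM and were led by none of the marker lists. It held 930 nuclei and 204 UMIs of Gabra5, with no fewer than 16 in a mouse. The level was 82.5, 74.8, 73.8 and 116.1 CPM in control and 157.0, 198.6, 255.4 and 143.3 CPM in CUS mice. The groups did not overlap, with control mouse 4 and CUS mouse 4 closest. The mean rose from 86.8 ± 19.9 to 188.6 ± 50.4 CPM, a log2 difference of 1.15 (SE 0.25, FDR 0.0695, edgeR), in a class where 8 of 4630 genes were called (0.173%). The cluster made up 3.495% to 4.382% of nuclei in control mice. CUS mice 1, 3 and 4 lay below that range, at 2.681%, 2.828% and 2.804%, and CUS mouse 2 inside it, at 4.127%. The striatal-like share had the same pattern, and the part of the cluster's share in the call was not tested. The call was lost with DESeq2 (1.16, FDR 0.251), with nuclei of at least 1000 genes (1.01, FDR 0.578), and without control mouse 2 (FDR 0.380) or 3 (FDR 0.308) or CUS mouse 3 (FDR 0.297). It held without CUS mouse 2 (1.12, FDR 0.127).

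**Figure D4:**
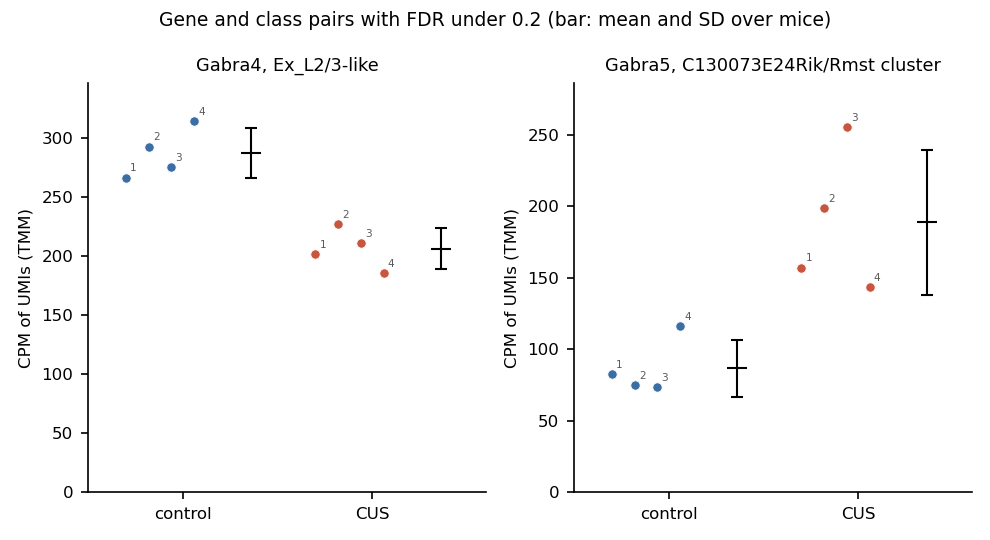
TMM-scaled CPM (vertical axes from 0) of Gabra4 in Ex_L2/3-like nuclei and of Gabra5 in the C130073E24Rik/Rmst cluster in each of 4 control and 4 CUS mice, with the mean and SD of each group as a bar. The groups are apart in both panels, with CUS lower for Gabra4 (185.4 to 227.2 against 266.3 to 314.2) and higher for Gabra5 (143.3 to 255.4 against 73.8 to 116.1).

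Gabra5 elsewhere was tested in 18 further classes. Its median over the 19 classes was 0.02, and in Ex_L6b-like nuclei, where it was highest, the difference was 0.02 (SE 0.19, FDR 0.995). Over the 19 classes Gabra5 was above 0 in 12 and below 0 in 7. In the Pbx3/Foxp2 cluster, also with Gad2 (727 CPM) far above Slc17a7 (18.8 CPM), the difference was 1.51 (SE 0.58, FDR 0.992) without overlap. It rested on 32 UMIs in all, with none in control mouse 4. With 302 nuclei, Gabra5 only just passed the filter of summed UMIs over 10% of the nuclei there. This value is not read as support for the call.

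Gabrb2 was below 0 in 21 of 26 classes, with a median of -0.34 and a range of -0.61 to 0.36. The main edgeR fit and DESeq2 called 0, and 9 had an unadjusted p under 0.05 (edgeR), all lower. With the replicate number as a block in the edgeR fit, Gabrb2 was called in Ex_L2/3-like nuclei and in the Slc26a4/Galnt14 cluster. In Ex_L2/3-like nuclei Gabrb2 had 535.0, 663.9, 571.3 and 579.7 CPM in control and 295.0, 534.6, 482.3 and 468.0 CPM in CUS mice. The groups did not overlap, though CUS mouse 2 came within 1 CPM of the lowest control mouse, and CUS mouse 1 was far below the others (log2 difference -0.41, SE 0.15, FDR 0.335). Without CUS mouse 2 it was -0.50 (FDR 0.0648), and without CUS mouse 1 it was -0.25 (FDR 0.71). In Inh_Pv-like nuclei it had 661.8, 744.2, 621.4 and 677.9 CPM in control and 362.8, 561.2, 600.8 and 493.4 CPM in CUS mice, again without overlap (log2 difference -0.43, SE 0.16, FDR 0.962, and -0.49 with an FDR of 0.443 without CUS mouse 2). In Inh_Ndnf-like nuclei, where Gabrb2 was highest, the difference was -0.01, and -0.18 without CUS mouse 2.

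Gabrb1 was below 0 in 23 of 27 classes, with a median of -0.10, 2 at an unadjusted p under 0.05 and 0 called by edgeR or DESeq2. The groups did not overlap in Ex_L4-like nuclei (1061 ± 21.4 CPM in control and 888 ± 104 in CUS mice, log2 difference -0.26, SE 0.12, FDR 0.503) or in striatal-like Drd1 nuclei (786 ± 28.8 and 605 ± 54.0, log2 difference -0.37, SE 0.16, FDR 0.985). In Astrocyte-like nuclei, where it was highest, the difference was -0.01 (SE 0.15).

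Gabrd was tested in 14 classes, was above 0 in 9 and below 0 in 5, with a median of 0.19, 1 at an unadjusted p under 0.05 and 0 called by edgeR or DESeq2. In Ex_L4-like nuclei it had 56.9, 54.9, 50.2 and 65.4 CPM in control and 74.6, 84.0, 72.4 and 70.1 CPM in CUS mice. All 4 CUS mice were above all control mice there, with control mouse 4 nearest to CUS mouse 4 (log2 difference 0.42, SE 0.17, FDR 0.428). In Ex_L2/3-like nuclei, where Gabra4 was called lower, Gabrd stood at 115.8 ± 20.9 CPM in control and 134.6 ± 19.1 in CUS mice (log2 difference 0.23, SE 0.15, FDR 0.543), with overlap.

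The synaptic alpha subunits had 0 calls over the classes with edgeR or DESeq2, with 4 pairs of Gabra2 (2 lower, 2 higher) and 0 of Gabra3 at an unadjusted p under 0.05. Gabra2 was below 0 in 17 of 27 classes with a median of -0.07, and overlapped in all of them. Its largest difference was 1.63 (SE 0.73) in the Nefm/Nefl cluster, on 37 UMIs. Gabra3 was below 0 in 16 of 25 classes with a median of -0.11, and only in Ex_L6-like nuclei did the groups not overlap (202.2 CPM in control and 173.4 in CUS mice, log2 difference -0.23, SE 0.13, FDR 0.811).

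**Figure D5:**
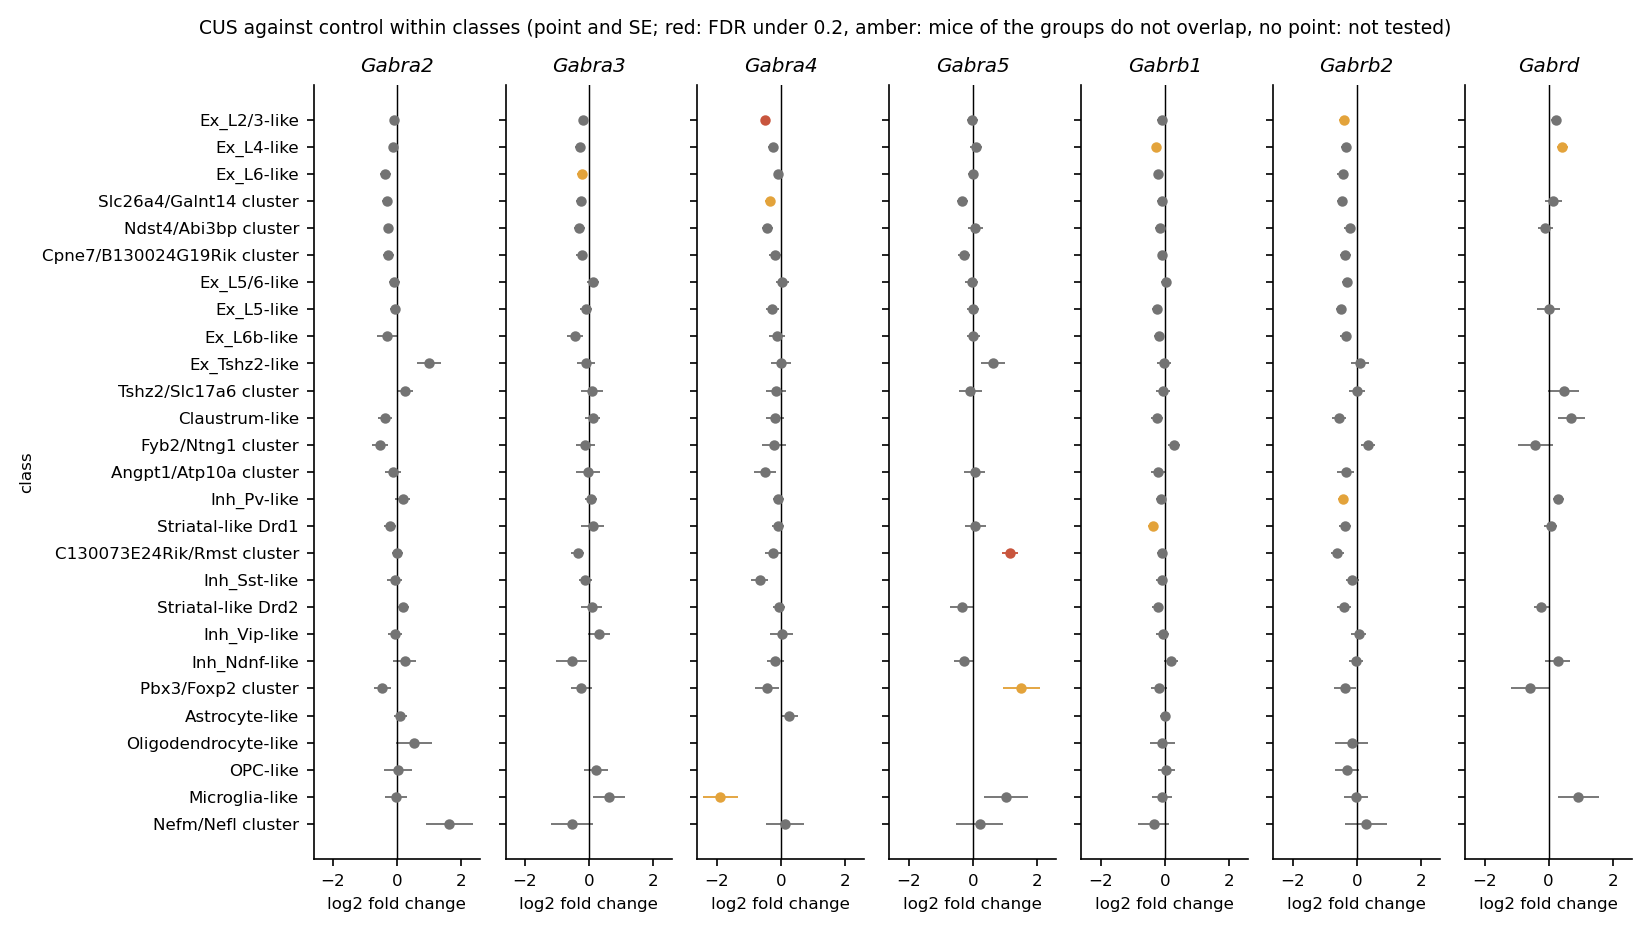
Log2 fold change of CUS against control (horizontal axes, point and SE) for the 7 genes (panels) in 27 classes (rows), red where the FDR was under 0.2, amber where the groups did not overlap without a call, and with no point where a gene had too few UMIs. Gabra4 in Ex_L2/3-like nuclei (-0.48) and Gabra5 in the C130073E24Rik/Rmst cluster (1.15) are red, and the points of Gabrb2 lie left of 0 in 21 of 26 classes.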

How the data were processed

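The files hold counts, made by the authors before deposit and not normalized. Bulk nuclear RNA, from a stranded total RNA kit with ribosomal depletion, was aligned with STAR to mm10 and uniquely mapped reads were counted per gene, per the authors; use of strand and the annotation release are not given in the sources used here. sNucDrop-seq reads were mapped to mm10 (Gencode vM13), and exonic and intronic UMIs on the annotated strand were deposited for 5000 barcodes per mouse.

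Groups and replicate numbers came from the sample labels. The 7 members, the gene lists and the markers were chosen with earlier results of these data known. Named genes were the members, up to 4 genes per list with the smallest p in bulk and the 3 genes most like each member over classes; some results are not reported here. Other subunits were 12 genes, the inhibitory postsynapse and trafficking list 28, GABA synthesis, transport and breakdown 8, GABA-B receptor 6 and chloride transport 11.

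Bulk counts were tested with edgeR 4.0.16 (R 4.3.3) on genes kept by filterByExpr, with TMM factors, the quasi-likelihood test and Benjamini-Hochberg adjustment over all 18394 genes. Barcodes were kept at 600 to 5000 genes, less than 5% of UMIs from mitochondrial genes and a Scrublet score (scanpy 1.11.5, expected rate 0.1) of at most 0.2, which removed 4787 doublets (15.2%). Of 31486 nuclei before doublet removal, 26699 remained. Nuclei were clustered with Seurat 5.3.0 (2000 variable genes, from which 4 GABA-A genes were left out, 50 components, 20 neighbors, resolution 1), giving 36 clusters. A cluster was named where at least 3 markers of a type were 1.5-fold enriched in at least 5% of its nuclei and 2 were among its 10 leading genes; these limits were set after seeing the clusters, without regard to condition. Clusters of one name were merged. UMIs were summed per mouse and tested as in bulk, on genes with summed UMIs over 10% of the nuclei, at an FDR of 0.2, without a batch term. Intervals over mice are SDs, and the tests were checked on simulated data. Alternatives were DESeq2 1.42.0, the likelihood ratio test, which the study used, a replicate block, library totals without TMM factors, testing without a low-count filter, single mice left out, other filters on nuclei and resolution 0.6.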

Additional observations from a re-analysis of the deposited data

Results flagged for a closer look

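In bulk, CUS mouse 2 had 69.8 CPM of Gabra5, apart from the other CUS mice, which lay between 60.1 and 62.2 CPM. The gap was 0.792 of the range of the 5 mice, above Dixon's critical value of 0.71. Over the 50 groups of 4 or 5 mice looked at, 1 met this rule, and chance flags about 1 group in 20. The highest control mouse stood at 67.0 CPM, so CUS mouse 2 was also the highest of the 9.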

How the results depend on the processing

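Bulk genes called numbered 606 and moved to 1366 with DESeq2, 1330 with the likelihood ratio test and 133 to 1508 with single mice left out (133 without control mouse 2, 1508 without control mouse 3). Bulk members called were 0, and 0 to 1 with single mice left out (Gabrd without control mouse 4). In all nuclei 1 gene was called, 22 with DESeq2, 17 with the likelihood ratio test, 315 of 36465 without a filter on low counts and 0 to 828 with single mice left out (828 without CUS mouse 2), and members called were 0 to 3. Gene and class pairs numbered 133 and moved to 88 with DESeq2, 338 with the likelihood ratio test and 40 to 1503 with single mice left out (40 without CUS mouse 1, 1503 without CUS mouse 2). Member and class pairs called were 2, 1 with DESeq2, 1 with at least 1000 genes per nucleus and 0 to 6 with single mice left out (0 without control mouse 2 or CUS mouse 3, 6 without CUS mouse 2). Fewer mice enter each such fit, and otherwise the cause was not tested.

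Gabra5 in the C130073E24Rik/Rmst cluster was 1.16 with DESeq2 and 1.01 with at least 1000 genes per nucleus, neither called, and 1.00 to 1.30 with single mice left out. Gabra4 in Ex_L2/3-like nuclei was -0.53 to -0.42 with single mice left out. Each of the 2 calls held under 9 of 14 alternatives. Small bulk differences changed sign. Gabrb2 went to -0.012 without TMM factors and -0.019 to 0.077 with single mice left out, Gabra3 to -0.0021 to 0.14, Gabra5 to -0.0037 to 0.11 and Gabrb1 to -0.060 to 0.0059.

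The replicate number as a block gave 233 bulk genes, 337 gene and class pairs and 4 member and class pairs, adding Gabrb2 in Ex_L2/3-like nuclei and in the Slc26a4/Galnt14 cluster. Correlations of same-numbered mice were 0.03 to 0.23 in bulk and -0.45 to 0.40 in nuclei, so the numbers were not taken as pairs. At resolution 0.6 the class highest for Gabrb2, Inh_Ndnf-like, was not present by that name, and the classes highest for the other 6 genes stayed first. Low UMI counts limit Gabrd and Gabra5, which went untested in 13 and 8 of 27 classes.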
